A study of Mus musculus with 59 samples.

Results

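The carboxylesterases examined here were the 4 Ces1 genes Ces1d, Ces1e, Ces1f and Ces1g and the 5 Ces2 genes Ces2a, Ces2c, Ces2e, Ces2f and Ces2g, 9 of the 20018 genes that had a named probe on the array. They were read by 12 probes in all: 3 for Ces2c, 2 for Ces2e and 1 for each of the other genes. The set was chosen by the measured log2 ratios of Ces2e in low-dose lung and of Ces2f in high-dose forestomach, each higher than in the vehicle group, so those contrasts are described with no test. Every other member was included as a close relative. Adult male Muta™Mouse of about 16 weeks, a transgenic strain that carries a lacZ reporter, were gavaged daily for 28 days with benzo(b)fluoranthene (BbF), dissolved in olive oil, at 25 (low), 50 (medium) or 100 (high) mg/kg-bw/day, or olive oil alone (vehicle). BbF is a polycyclic aromatic hydrocarbon. Lung, liver and forestomach were taken 72 h after the last dose. Each group held 5 mice, except the low-dose lung with 4, which gave 19 lung, 20 liver and 20 forestomach arrays, and the same animal supplied each tissue. All groups, vehicle included, shared strain, sex, age, gavage and olive oil. The sample titles and the treatment text name BbF as the agent, whereas the exposure label and the series design name benz(a)anthracene. Tissue RNA was labelled with Cy5 and hybridised beside a Cy3-labelled reference RNA pooled from mouse cell lines, so a level is given as log2(Cy5/Cy3), the log2 ratio of tissue to reference for 1 probe, and is comparable between arrays but not between probes. The RNA came from random sections of bulk tissue, in which fewer cells of a type and less RNA per cell cannot be told apart.

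Carboxylesterases are serine hydrolases of the endoplasmic reticulum that cleave esters, amides and thioesters in drugs, pesticides and endogenous lipids. In the mouse they lie as tandem copies on 1 chromosome, with sequences so alike within the Ces1 and the Ces2 groups that a probe of one gene can be close to its neighbours. Ces1d is known as triacylglycerol hydrolase, Ces1e as egasyn, which holds beta-glucuronidase in the endoplasmic reticulum, and Ces1g as an enzyme of lipid mobilisation. Ces2a and Ces2e are known as pyrethroid hydrolases and Ces2c as an acylcarnitine and acylglycerol hydrolase. The liver is the main site of most of these enzymes, the small intestine is rich in Ces2 enzymes, and the lung is rich in Ces1d.

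Promoters of 7 of the 9 genes were in the RefSeq table used here (build GRCm38.p6). Those of Ces2e and Ces2c, a probe of each of which moved together in lung, and of Ces2f, which moved in forestomach, are shown as the 250 bases before the annotated start, 5′ to 3′ on the plus strand. They lie at chr8:104926010-104926259 (Ces2e), chr8:104846818-104847067 (Ces2c) and chr8:104947106-104947355 (Ces2f), and the capitals mark the run of 7 bases, GAGGCCA, that all of them share.
Ces2e: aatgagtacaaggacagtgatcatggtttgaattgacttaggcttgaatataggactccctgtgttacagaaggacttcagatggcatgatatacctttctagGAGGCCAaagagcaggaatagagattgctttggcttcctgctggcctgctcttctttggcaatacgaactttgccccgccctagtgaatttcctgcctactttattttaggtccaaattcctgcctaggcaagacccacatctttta
Ces2c: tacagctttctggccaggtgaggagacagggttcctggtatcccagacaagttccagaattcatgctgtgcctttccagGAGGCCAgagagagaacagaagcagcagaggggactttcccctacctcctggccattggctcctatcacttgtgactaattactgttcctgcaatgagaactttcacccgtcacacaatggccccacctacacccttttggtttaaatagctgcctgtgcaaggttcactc
Ces2f: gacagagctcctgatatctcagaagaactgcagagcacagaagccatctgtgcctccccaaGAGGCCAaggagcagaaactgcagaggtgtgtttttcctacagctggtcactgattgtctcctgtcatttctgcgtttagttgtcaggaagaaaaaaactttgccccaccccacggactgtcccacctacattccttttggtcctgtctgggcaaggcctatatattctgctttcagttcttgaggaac
Both shared runs were picked because these promoters hold them, so their counts among the members are no measure of enrichment. The marked run began 147 bases before the start in Ces2e, 171 in Ces2c and 189 in Ces2f. Searched on both strands of the 300-base promoters, which also take in the 50 bases after the start, it was present in 4 of the 7 members (Ces2a, Ces2c, Ces2e and Ces2f) and in 7.74% of all 32851 promoters. ACAGAAG, an equally long shared run that lay at more scattered distances and is not marked, was in 3 of the 7 and in 7.32% of all promoters. GCGTG, the core of the site that the aryl hydrocarbon receptor binds, was in none of the 7 windows and in 32.4% of all promoters. AGGTCA, a core element of many nuclear receptor sites, was in the window of Ces2a and in 16.3% of all promoters. The motifs do not overlap in the printed bases. No probe sequence was at hand, so which family member each probe would bind could not be checked.

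Libraries that stood apart bear on several members. The 5 lung markers had a mean log2 ratio of 6.33 to 7.18 on every lung array and the 6 liver markers one of 6.51 to 7.08 on every liver array, so both labels held. In liver, 8 of the 20 arrays, all on 1 slide, had 10.8 to 13.0% of probes well above background in Cy5, against 37.1 to 46.2% on the other 12. Of its 8 livers, 3 were high-dose, 2 medium-dose and 2 low-dose, and 1 was vehicle. The 6 forestomach markers had a mean of 4.23 to 4.71 on the 20 forestomach arrays, but the 8 glandular stomach markers ranged there from 0.25 to 6.46 and the 6 liver markers from 0.28 to 5.24. The mean of 7 adipocyte markers ranged from 0.54 to 4.45 in lung and from 1.06 to 5.34 in forestomach. The part of fat tissue in the member values was not tested. The lung of mouse 6, low dose, had a mean of 3.43 over the 6 forestomach markers against −0.66 to −0.16 on the other lung arrays, with Krt4 at 5.73 and Krt13 at 4.17. The lung of mouse 13, medium dose, had 68.9% of probes above background against 44.8 to 52.7% on the others.

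Ces2e was the member with the widest dose range in lung. Its brighter probe, A_55_P1959500, read 0.46, 0.90, 0.95, 0.86 and 1.22 in the vehicle lungs of mice 1 to 5. The low-dose lungs, which chose the gene, read 2.83, 2.99, 2.92 and 3.32, so all 4 lay above every vehicle lung, and the means differed by 2.14 on the log2 scale. Across all probes, 0.345% were called in that contrast, the call being an adjusted p of at most 0.05 and a change of 1.5-fold or more over 55681 probes.

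The medium-dose lungs read 3.25, 3.18, 2.50, 3.51 and 3.71 for Ces2e and the high-dose lungs 3.34, 3.51, 3.11, 3.77 and 3.87. All 10 lay above the vehicle lungs, with the lowest in mouse 13. Ces2e rose by 2.35 ± 0.19 (SE, n = 5 per group) at the medium dose, a 5.11-fold change with an adjusted p of 1.17e-06 in limma. It rose by 2.65 ± 0.19, 6.26-fold, at the high dose (adjusted p = 2.96e-08, 5 of 5 lungs above all vehicle lungs). These tests shared the vehicle lungs with the contrast that chose the gene. The high dose compared with the medium dose used neither the vehicle nor the low-dose lungs, and there Ces2e differed by 0.29 ± 0.19, with a 95% interval of −0.10 to 0.68 and an adjusted p of 0.718, while 0.183% of all probes were called. Within the 3 lung slides the high-dose change of Ces2e was 2.60, 2.21 and 2.75.

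The second probe of Ces2e, A_51_P179919, went the same way at a much lower signal. It read −0.08, 0.03, 0.22, 0.25 and 0.02 in vehicle lung and was well above background on none of those arrays. The high-dose lungs read 0.90, 0.78, 0.48, 0.56 and 0.73, all above the vehicle lungs and all above background. It was called at the high dose only (0.60 ± 0.10, adjusted p = 0.000989), and because the vehicle lungs had only a bound in Cy5 the high-dose lungs were at least 1.34-fold brighter. The call ended without mouse 1, 16 or 17, where the change of 0.55 to 0.58 fell under 1.5-fold, and likewise in the processed table of the authors (0.58). At the medium dose it differed by 0.40 ± 0.10 (adjusted p = 0.0496), under 1.5-fold. Over the 19 lung arrays the probes of Ces2e correlated with r = 0.83, given as a description over arrays that share dose groups, and with r = 0.39 after each group mean was removed.

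**Figure D1:**
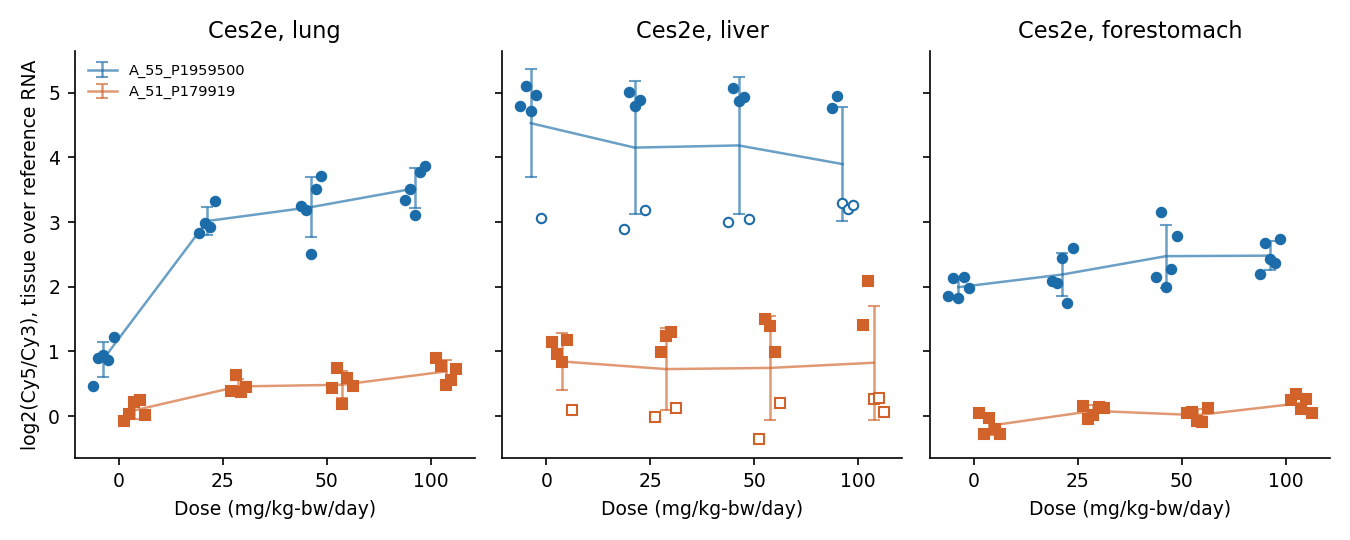
Ces2e in lung, liver and forestomach: log2(Cy5/Cy3) on the y axis for each mouse, by dose on the x axis, with the brighter probe A_55_P1959500 as blue circles and A_51_P179919 as orange squares; lines join group means and bars are ± 1 SD. The brighter probe goes from a mean of 0.88 in vehicle lung to 3.52 in high-dose lung, while open symbols mark the 8 livers of the slide with 10.8 to 13.0% of probes above background, which lie below the other livers at every dose.

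The 3 probes of Ces2c did not agree in lung. The brightest, A_55_P2005213, read 0.70, 0.75, 0.91, 0.39 and 1.54 in vehicle lung. The low-dose lungs read 2.29, 2.43, 1.85 and 2.57, the medium-dose lungs 2.31, 2.26, 1.33, 2.47 and 3.03, and the high-dose lungs 2.62, 2.98, 2.32, 2.46 and 2.90. All exposed lungs but that of mouse 13 lay above all vehicle lungs. By this probe Ces2c rose by 1.42 ± 0.24 at the medium dose (2.68-fold, adjusted p = 0.00342, 4 of 5 above all vehicle lungs) and by 1.80 ± 0.24 at the high dose (3.48-fold, adjusted p = 0.000109, 5 of 5). Its high-dose change within slides was 1.14, 1.67 and 2.08.

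Neither of the other probes of Ces2c was called. A_52_P318361 read −0.04 to 0.63 in vehicle lung and −0.41 to 0.57 at the high dose, well above background on 10 of 19 lung arrays, and its high-dose change of −0.12 had a 95% interval of −0.46 to 0.22. A_55_P2124712 was above background on all 19 lung arrays, with group means of 0.78, 1.33, 1.25 and 0.75 from vehicle to high dose, and 3 of 4 low-dose lungs above all vehicle lungs. Its medium-dose change was 0.47 ± 0.20 (adjusted p = 0.279), and it differed by −0.51 ± 0.20 between high and medium dose (adjusted p = 0.425). Its high-dose change was −0.03, with a 95% interval of −0.45 to 0.38 that leaves out the 1.80 of the brightest probe. These probes correlated with each other over the 19 lung arrays (r = 0.55, and 0.75 within groups). With the brightest probe they had r = −0.02 and 0.26, and within groups 0.28 and 0.21. The brightest Ces2c probe correlated instead with the brighter Ces2e probe, at r = 0.94, and at 0.79 within groups. In liver all 3 probes were lower on the dim slide, where A_55_P2005213 read 4.02 to 5.12, A_52_P318361 0.34 to 1.45 and A_55_P2124712 1.26 to 3.35, than on the other slides, at 6.73 to 7.13, 4.72 to 5.99 and 5.51 to 6.72. Whether the brightest Ces2c probe also takes up Ces2e RNA in lung was not tested.

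**Figure D2:**
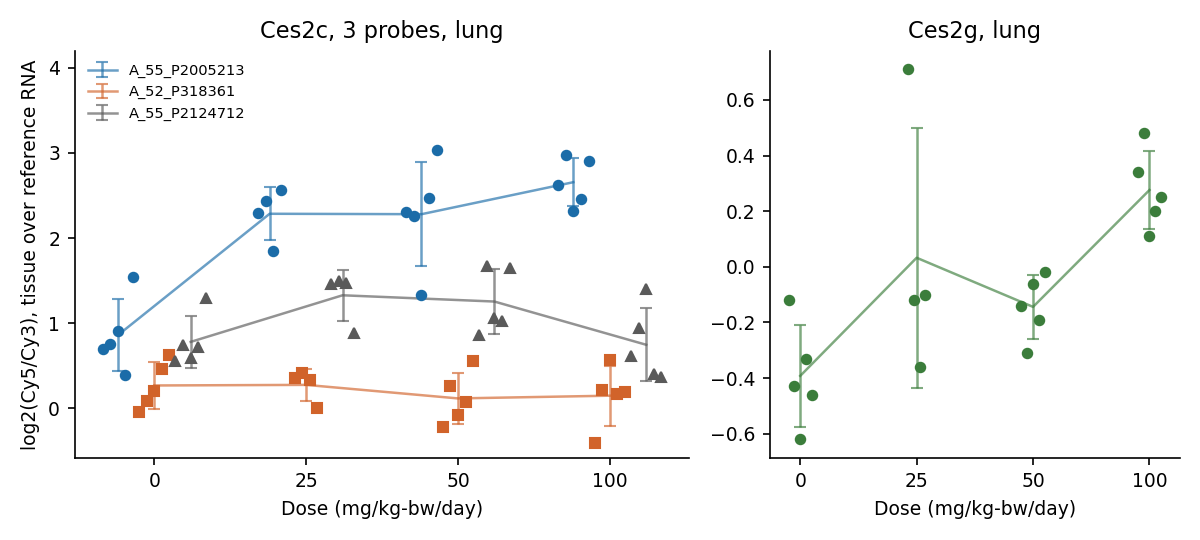
Lung log2(Cy5/Cy3) by dose for the 3 probes of Ces2c (left) and for Ces2g (right, a narrower y axis); each point is 1 mouse, lines join group means and bars are ± 1 SD. A_55_P2005213 rises to 2.66 at the high dose, whereas A_52_P318361 and A_55_P2124712 end at 0.15 and 0.75, near their vehicle means of 0.27 and 0.78; the low-dose point of Ces2g at 0.71 is mouse 6.

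Ces2g was near the level of the reference in lung and rose at the highest dose. The vehicle lungs read −0.12, −0.43, −0.62, −0.33 and −0.46, the medium-dose lungs −0.14, −0.31, −0.06, −0.19 and −0.02, and the high-dose lungs 0.34, 0.48, 0.11, 0.20 and 0.25. Every high-dose lung lay above every vehicle and every medium-dose lung. Ces2g rose by 0.67 ± 0.14 at the high dose (1.59-fold, adjusted p = 0.00621), with 0.69, 0.59 and 0.68 within the 3 slides, and its difference between high and medium dose was 0.42 ± 0.14 (adjusted p = 0.313). The low-dose lungs read 0.71, −0.12, −0.36 and −0.10, and the 0.71 was mouse 6, the lung with the forestomach markers.

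Ces2f and Ces2a had little signal in lung. Ces2f was well above background on 1 of 19 lung arrays, again that of mouse 6, at 1.15, while the other lungs read 0.02 to 0.56. Ces2a was above background on none of the 19 lung arrays, with readings of −0.12 to 0.31.

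The 4 Ces1 genes were well above background on every lung array and none was called at any dose tested. Ces1d had group means of 7.13, 7.19, 7.23 and 7.31 from vehicle to high dose, with an SD of at most 0.41. Ces1f had means of 3.84, 3.80, 4.02 and 3.97. Ces1e differed by 0.48 (95% interval 0.01 to 0.95, adjusted p = 0.254) and Ces1g by 0.53 (95% interval −0.03 to 1.08, adjusted p = 0.306) at the high dose. The intervals for Ces1d (−0.24 to 0.59) and Ces1f (−0.46 to 0.71) leave out a rise as large as that of Ces2e. Over the 19 lung arrays Ces1d, Ces1e and Ces1f varied together, at r = 0.71 to 0.75.

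In count, 2 of the 12 member probes were called at the medium dose in lung, both higher, where 0.469% of all probes were called. At the high dose 4 of 12 were called, all higher, against 1.45% of all probes. With median centring 5 of 12 were called there, against 6.29% of all probes. With loess the medium-dose calls were the brighter Ces2e and the brightest Ces2c probe. At the high dose they were both Ces2e probes, that Ces2c probe and Ces2g. Ces2e was chosen through the same vehicle lungs and that Ces2c probe varied with it, so these counts are no measure of enrichment. The median change over the 12 probes was 0.21 and 0.33, and that over all probes 0 at both doses. No member probe was called between the high and the medium dose. The unadjusted limma p there was under 0.05 for 2 of 12, against 5026 of all 55681 probes. Of the 6 intestinal epithelium markers, Vil1 was called at the high dose in lung (0.99 ± 0.15, adjusted p = 0.000462), and the list mean was −0.04 to 0.09 in vehicle and 0.08 to 0.41 in high-dose lungs, with at most 2 of the 6 above background in either. The part of such cells in the lung changes was not tested.

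Of the related genes outside the set, Ces2b was called at the medium dose in lung (1.12 ± 0.25, adjusted p = 0.0249) and lower at the high than at the medium dose (−1.18 ± 0.25, adjusted p = 0.048). Its group means were 1.44, 2.44, 2.56 and 1.37 from vehicle to high dose. The other 7 carboxylesterase genes with a probe, Ces1a, Ces1b, Ces1c, Ces3a, Ces3b, Ces4a and Ces5a, had no call in lung. Among 13 genes of other neutral lipid and ester hydrolases and 8 genes of xenobiotic and lipid receptors, none was called at the medium or the high dose in lung. Among 9 genes known as targets of the receptors CAR and PXR, Abcb1a, a drug efflux pump, was called at the high dose (0.74 ± 0.17, adjusted p = 0.00924), and no other.

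Likeness to Ces2e over the 19 lung arrays was ranked for named genes only. They came from 26788 probes, named or not, well above background on 10 or more of these arrays. The most alike were Bax (r = 0.98), Olfr1229 (0.96), Thyn1 (0.95), Cdkn1a (0.95) and Palmd (0.94). Bax promotes apoptosis and Cdkn1a inhibits cyclin-dependent kinases. After the group means were removed the correlations were 0.81, 0.74, 0.45, 0.69 and 0.56. These are descriptions over arrays that share dose groups and hybridisation, and carry no test.

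In forestomach Ces2f, which this tissue chose, had the clearest separation by dose. The vehicle forestomachs read 1.03, 1.06, 0.50, 0.88 and 0.51, the low-dose ones 1.07, 0.81, 0.93, 1.04 and 1.51, and the medium-dose ones 1.40, 0.91, 1.07, 1.35 and 1.30. The high-dose forestomachs read 2.05, 2.25, 2.06, 1.91 and 2.55, and all 5 lay above all 15 others. The high-dose mean was higher than the vehicle mean by 1.37 on the log2 scale, or 2.59-fold, in the contrast that chose it, where 0.07% of all probes were called. Within slides that difference was 1.30, 1.11 and 2.05, the last from 1 array against 1. At the low and medium doses, tested against the same vehicle forestomachs that helped to choose it, Ces2f differed by 0.28 ± 0.15 (adjusted p = 0.976) and 0.41 ± 0.15 (adjusted p = 0.845).

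The named genes most like Ces2f over the 20 forestomach arrays, from 25794 probes named or not, were Fkbp15 (r = 0.88), S100a7a (0.86), Pgbd5 (0.86), Gm21944 (0.84) and Pappa (0.84). Within groups these values were 0.65, 0.36, 0.36, 0.21 and 0.37. Of the members, Ces2g had r = 0.62 with Ces2f and the Ces2c probes 0.26 to 0.27. The Ces2e probes had 0.46 (A_55_P1959500) and 0.62 (A_51_P179919, above background on none of these arrays). After group means were removed the values were 0.36 for Ces2g and 0.19 to 0.23 for Ces2c. For the Ces2e probes they were then 0.19 (A_55_P1959500) and 0 (A_51_P179919). All are descriptions with no test.

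Ces2g in forestomach also had its highest values at the high dose but overlapped between groups. The vehicle forestomachs read 2.39, 0.16, 1.25, 1.48 and 0.44, the low-dose ones 2.75, 0.34, 0.78, 2.70 and 2.44, the medium-dose ones 2.36, 1.53, 2.76, 2.48 and 1.22, and the high-dose ones 3.06, 2.73, 2.27, 2.46 and 2.61. The spread narrowed from an SD of 0.89 in vehicle to 0.30 at the high dose, and 4 of 5 high-dose values lay above all vehicle values. The medium-dose change of Ces2g was 0.93 ± 0.47 (95% interval −0.05 to 1.90, adjusted p = 0.86).

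**Figure D3:**
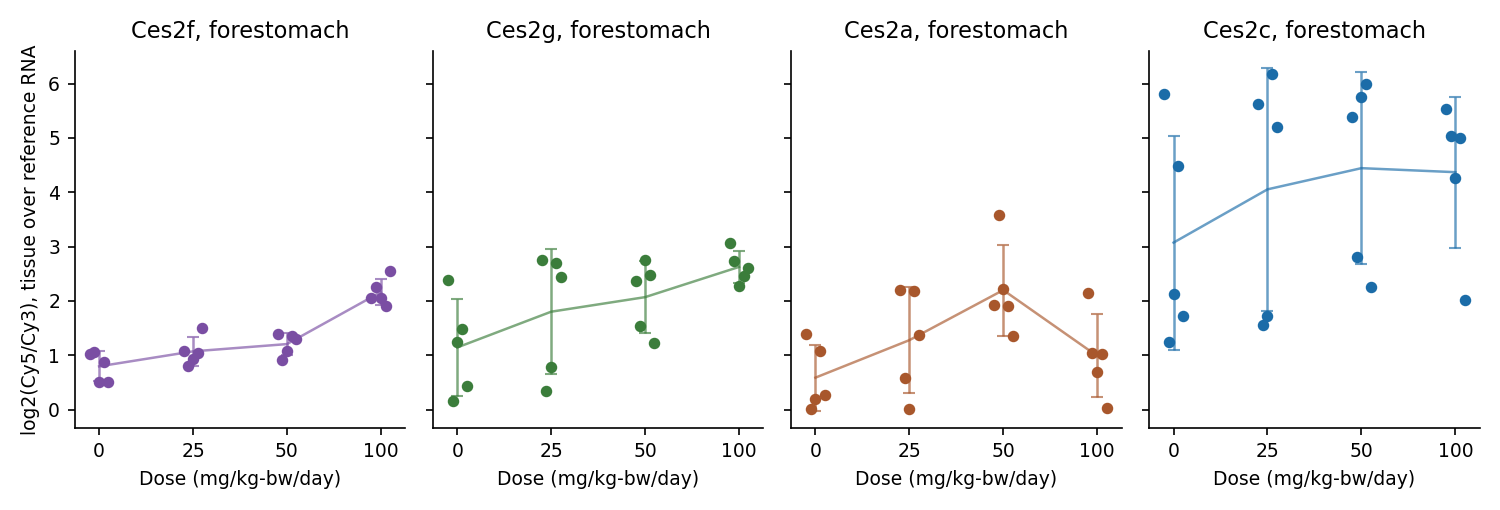
Forestomach log2(Cy5/Cy3) by dose for Ces2f, Ces2g, Ces2a and the brightest probe of Ces2c; each point is 1 mouse, lines join group means and bars are ± 1 SD. The 5 high-dose values of Ces2f sit between 1.91 and 2.55, above all others, while Ces2c is widely spread within the groups, from 1.24 to 5.80 in vehicle.

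Ces2c varied more between forestomachs of 1 group than between groups. By A_55_P2005213 the vehicle forestomachs read 5.80, 1.24, 2.13, 4.48 and 1.72 and the high-dose ones 5.53, 5.04, 4.26, 5.00 and 2.02. The medium-dose change of 1.37 ± 1.07 had a 95% interval of −0.87 to 3.61 and an adjusted p of 0.901.

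Ces2c moved with the glandular stomach markers, which mark mucus-secreting and acid-secreting epithelium next to the forestomach. On the 7 forestomach arrays with a marker mean below 3 (mice 2, 5, 7, 8, 12, 15 and 20), Ces2c read 1.24 to 2.81, and on the other 13 arrays, at 3.87 or above, 2.13 to 6.17. These ranges overlapped, whereas A_52_P318361 read 0.14 to 0.69 on the 7 arrays and 0.96 to 6.17 on the 13, without overlap. Ces2g read 0.16 to 2.61 and 1.25 to 3.06 on the same arrays. Among the 7 arrays the vehicle mice read 0.16 and 0.44 for Ces2g, the low-dose mice 0.34 and 0.78, the medium-dose mice 1.53 and 1.22, and the high-dose mouse 2.61. Among the 13 the vehicle mice read 2.39, 1.25 and 1.48 for Ces2g and the low-dose mice 2.75, 2.70 and 2.44. The medium-dose mice there read 2.36, 2.76 and 2.48 and the high-dose mice 3.06, 2.73, 2.27 and 2.46, so the exposed groups overlapped. Ces2f read 0.51 to 2.55 on the 7 and 0.50 to 2.25 on the 13, and its highest value was in mouse 20, whose glandular markers were among the lowest at 0.59. With the glandular markers as a covariate the high-dose difference of Ces2f, in the contrast that chose it and with no test, was 1.36. The medium-dose change of Ces2c was 1.35 ± 0.32 with that covariate (adjusted p = 0.271). The part of glandular tissue in the Ces2f values was not tested.

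**Figure D4:**
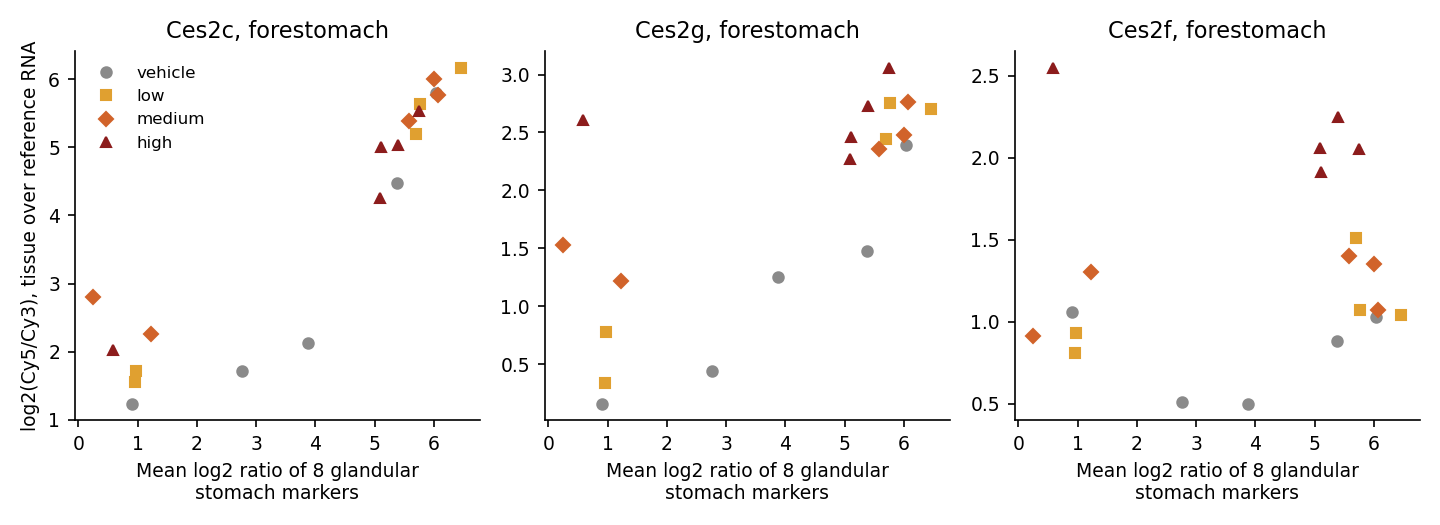
Forestomach log2(Cy5/Cy3) of Ces2c (brightest probe), Ces2g and Ces2f on the y axes against the mean log2 ratio of 8 glandular stomach markers on the x axes; each point is 1 mouse, with shape and colour for the dose group. Ces2c is at most 2.81 on the 7 arrays with a marker mean below 3 and reaches 6.17 on the others. The 5 high-dose points of Ces2f are its highest, and only 1 of them, mouse 20, has a marker mean below 3.

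Ces2a read 1.39, 0.01, 0.19, 1.08 and 0.27 in vehicle forestomach and 1.93, 3.59, 2.22, 1.90 and 1.36 at the medium dose, with 4 of 5 medium-dose values above all vehicle values. The change was 1.61 ± 0.46 (adjusted p = 0.773). Its highest value, 3.59, was in mouse 12, whose forestomach had the highest liver marker mean, 5.24, and the 6 liver markers were at 1.85 to 5.24 in the medium-dose and 0.47 to 2.18 in the vehicle forestomachs. With the liver markers as a covariate the change of Ces2a was 0.88 ± 0.54 (adjusted p = 0.901). The marker ranges differed between these dose groups, so the covariate cannot part liver tissue from dose. The part of liver tissue in the Ces2a change was not tested.

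Ces2e in forestomach had means of 1.99, 2.19, 2.47 and 2.48 from vehicle to high dose. The medium-dose change of 0.48 ± 0.19 had an adjusted p of 0.854. Its highest medium-dose value, 3.16, was in mouse 12, whose forestomach had the highest liver marker mean. With the liver markers as a covariate the change was 0.21 ± 0.23 (adjusted p = 0.917). The part of liver tissue in the Ces2e change was not tested. The 5 high-dose values of Ces2e, 2.20 to 2.74, lay above all vehicle values, 1.83 to 2.15. Its second probe was above background on none of the 20 arrays. Ces1d and Ces1f were above background on all 20 and no group mean was higher than the vehicle mean of 5.01 and 6.10. Ces1e and Ces1g were above background on 14 and 11 of the 20.

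No member probe was called in forestomach at the low dose, where limma called 0% of all probes. There 3 of 12 member probes had an unadjusted p under 0.05, against 2574 of all 55681 probes. None was called at the medium dose either, again with 0% of all probes called. The unadjusted p was under 0.05 for 4 of 12 member probes and for 3161 of all 55681 probes. The largest SE among the member probes was 1.58, that of the Ces2c probe A_52_P318361.

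In liver every member probe had a lower mean at each dose than in vehicle over all 20 arrays, none was called, and the direction did not hold without the dim slide. Ces1d read 8.66, 8.71, 8.48, 8.58 and 6.30 in vehicle and 8.50, 8.66, 5.67, 5.93 and 5.97 at the high dose. Ces2e read 4.80, 5.10, 4.72, 4.96 and 3.06 in vehicle and 4.77, 4.95, 3.29, 3.20 and 3.27 at the high dose. In both, the low values were those of the dim slide: mouse 5 in vehicle and mice 18, 19 and 20 at the high dose. The high-dose change was −1.20 ± 0.88 for Ces1d (adjusted p = 0.714) and −0.63 ± 0.57 for Ces2e (adjusted p = 0.728).

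Every member except Ces2f read lower on the dim slide than on the others. Ces2f read −0.15 to 0.38 there and 0.00 to 0.52 on the others. It was well above background on 1 of the 20 liver arrays, so its readings cannot show a shift. Ces1e read 1.85 to 2.76 on the 8 arrays of the dim slide and 5.19 to 5.62 on the other 12. Ces2a read 4.09 to 5.83 and 7.35 to 7.81, and Ces2e 2.89 to 3.29 and 4.72 to 5.10. The 6 liver markers did not move that way, at 6.57 to 7.08 on the dim slide and 6.51 to 6.89 on the others. Without that slide the high-dose changes of the 12 probes ranged from −0.43 to 0.72 with a median of −0.03, where over all livers the median had been −1.22. Without it 5 of the 12 were higher and 7 lower at the high dose, 9 were higher and 3 lower at the medium dose (median 0.06, against −0.65 over all livers), and 5 were higher and 6 lower at the low dose (median 0, against −0.53). None of the 12 was called at any dose in that setting, where the share of all probes called was 0% for low dose, 0.377% for medium dose and 0.747% for high dose. Ces2e then changed by −0.04 ± 0.12 (adjusted p = 0.947), with 2 high-dose livers against 4. On the dim slide itself, with 3 high-dose livers against 1 vehicle liver, Ces2e differed by 0.19 and Ces2a by −1.59, and on the slide with 2 against 2 by −0.09 and −0.13. Over all livers limma called 0% of all probes in the low-dose and in the medium-dose contrast and 0.00359% in the high-dose contrast, and no member probe had an unadjusted p under 0.05.

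**Figure D5:**
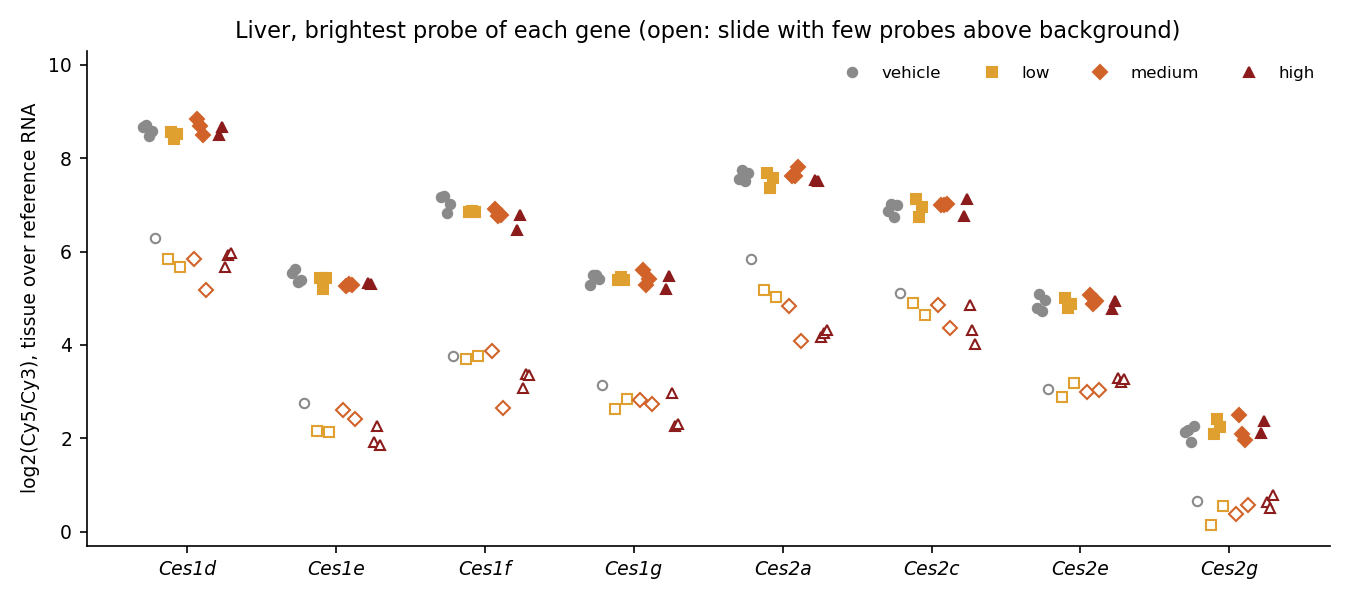
Liver log2(Cy5/Cy3) of the brightest probe of 8 of the 9 genes (Ces2f, near background in liver, is left out), with shape and colour for the dose group; each point is 1 mouse, and open symbols are the 8 arrays of the slide with 10.8 to 13.0% of probes above background. For every gene the open symbols lie below the filled ones whatever the dose, as for Ces1e with 1.85 to 2.76 against 5.19 to 5.62.

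The change of Ces2e differed between tissues. At the high dose its change in lung exceeded that in liver by 3.28 ± 0.62 (95% interval 2.01 to 4.55, adjusted p = 0.00751). Without the dim liver slide the difference was 2.68 ± 0.28 (adjusted p = 2.31e-06), and with each array centred on its median in place of loess it was 4.89 ± 2.06, which was not called (adjusted p = 0.388). At the medium dose its change in lung exceeded that in forestomach by 1.87 ± 0.28 (95% interval 1.30 to 2.44, adjusted p = 0.00119). Both tests take in the vehicle lungs of the contrast that chose Ces2e, so they are not independent of that choice. Ces2e was the single member probe called in each, against 0.312% and 0.14% of all probes. The brightest Ces2c probe differed between lung and liver at the high dose by 2.92 ± 0.79, which missed the threshold with an adjusted p of 0.11 and passed it without the dim slide (1.75 ± 0.35, adjusted p = 0.00828).

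Among vehicle mice most members were highest in liver. Of the 12 probes, 10 were higher in liver than in lung, against 23.9% of all probes called in either direction, and 7 were higher in liver than in forestomach, against 19.6%. Without the dim liver slide the latter count was 11, against 22% of all probes. With median centring in place of loess the counts were 6, against 11.6% of all probes, and 4, of which 1 was lower, against 9.19%. Ces2a read 7.26 ± 0.81 (SD, n = 5) in liver, 0.06 ± 0.16 in lung and 0.59 ± 0.61 in forestomach. The liver exceeded the lung by 7.20 ± 0.61 on the log2 ratio scale (adjusted p = 1.19e-14), with no vehicle lung well above background, so that the lung level is only an upper bound. Ces2e read 4.53 ± 0.83 in liver, 1.99 ± 0.15 in forestomach and 0.88 ± 0.27 in lung, with 3.65 ± 0.38 between liver and lung (adjusted p = 1.19e-11), a difference that rests on the same vehicle lungs that helped to choose the gene.

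The Ces1 genes were spread differently. Ces1d was high in vehicle lung, at 7.13 ± 0.30, and its difference of 1.02 ± 0.56 from liver was not called (adjusted p = 0.159), but without the dim slide it was 1.48 ± 0.20 (adjusted p = 2.97e-08). Ces1f read 6.10 ± 0.23 in forestomach and 6.39 ± 1.47 in liver, a difference of 0.29 (95% interval −1.04 to 1.62, adjusted p = 0.805) that became 0.94 ± 0.23 without the dim slide (adjusted p = 0.000643). Ces1e and Ces1g were highest in liver, with 4.93 ± 1.22 and 4.97 ± 1.02, then lung, with 2.85 ± 0.22 and 1.81 ± 0.29, then forestomach, with 0.73 ± 0.80 and 0.18 ± 0.38.

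Between vehicle lung and forestomach 7 of 12 member probes were called, against 18.4% of all probes, and with median centring none was, against 8.88%. Ces1d (2.12), Ces1e (2.11) and Ces1g (1.62) were higher in lung. Ces1f (−2.26), the brightest Ces2c probe (−2.22), Ces2g (−1.54) and the brighter Ces2e probe (−1.11) were lower there. The Ces2e difference rests on the same vehicle lungs that helped to choose the gene. The call of Ces2e ended without mouse 1, 2 or 4 (adjusted p = 0.0602 to 0.0729), that of Ces2c without mouse 1 or 4 (0.18 to 0.249) and that of Ces1g without mouse 2 (0.0919). Ces2f, at 0.80 ± 0.27 in forestomach, was above background on 3 of 5 vehicle forestomachs, on 1 vehicle liver and on no vehicle lung.

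Ordered by group mean, Ces2e ran from vehicle, medium-dose, low-dose and high-dose liver (4.53, 4.18, 4.15 and 3.90) through high-, medium- and low-dose lung (3.52, 3.23 and 3.01) and high-, medium-, low-dose and vehicle forestomach (2.48, 2.47, 2.19 and 1.99) to vehicle lung (0.88). Neighbours within a tissue lay within the larger of their SDs apart from vehicle lung, which stood below all other groups. High-dose lung, at 3.11 to 3.87, stayed below the 12 livers of the brighter slides, at 4.72 to 5.10. Ces2f ran from high-dose forestomach (2.17) to the other forestomach groups (1.21, 1.07 and 0.80), and was well above background on 1 array of all the lungs (group means 0.21 to 0.39) and 1 of all the livers (0.06 to 0.22), so those groups have no order.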

How the data were processed

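Per the labels and the methods of the study, RNA from random sections of lung, liver and forestomach was labelled with Cy5 and hybridised with Cy3-labelled reference RNA on 59 Agilent 8x60K mouse arrays, read with Feature Extraction 10.7.3.1. The deposited scanner files hold spot intensities, of which the median signals were used without background subtraction. The authors also deposited a table of processed log2 ratios (r = 0.967 to 0.999 with the values used here, column medians −0.041 to −0.007), in which scaling and centring are not stated; it served as an alternative. Within-array loess was run in limma 3.58.1 under R 4.3.3, with zero weight for control spots and without outlier-flagged spots, and spots of a probe were averaged to 55681 probes, of which 26413 were named through the RefSeq table (GRCm38.p6). No colours were swapped, so dye bias stays in every level and cancels between arrays.

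The 4 dose groups of a tissue were fitted together, and tissues together for differences between them, with lmFit and eBayes. Benjamini-Hochberg adjustment ran over all probes, and a call needed an adjusted p of at most 0.05 and 1.5-fold or more, as in the study's thresholds. The scripts were tested on simulated data. All 9 members and every probe of them were reported, and genes of other lists were named where called. The members and lists were chosen with earlier results of these data known. A mouse number is the same animal in each tissue, as the labels give it, yet deviations of the same mouse from its group means correlated between tissues with medians of only −0.03 to 0.03. Alternatives were median centring, normexp with offset 50, a filter on dim probes, slide or mouse as a block, the processed table, arrays left out, and 2 marker covariates in forestomach. The slide and covariate choices for vehicle tissues and forestomach were made after seeing the data. The number of arrays limits the precision. Each array is 1 animal.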

Additional observations from a re-analysis of the deposited data

Results flagged for a closer look

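The change of the brighter Ces2e probe differed between tissues by the test of the difference itself. The difference was 3.28 between lung and liver at the high dose and 1.87 between lung and forestomach at the medium dose, as the report gives with errors. Both tests take in the vehicle lungs that helped to choose Ces2e, and the difference between lung and liver was not called with median centring.

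Of the 144 groups of a probe, tissue and dose, 14 had 1 mouse far from the other values of its group by Dixon's test, where chance gives about 1 in 20. The vehicle liver of mouse 5, the only vehicle liver on the slide with few probes above background, gave 10 of them. It read 6.30 for Ces1d, 2.76 for Ces1e, 3.77 for Ces1f, 3.15 for Ces1g, 5.83 for Ces2a, 3.06 for Ces2e and 0.66 for Ces2g. Its Ces2c probes read 0.84 (A_52_P318361), 5.12 (A_55_P2005213) and 1.91 (A_55_P2124712). In forestomach the low-dose mouse 9 read 3.51 for Ces1d, against 4.49 to 4.89 in the others. In lung the Ces2c probe A_55_P2124712 read 0.88 in low-dose mouse 10, against 1.46 to 1.5, and 1.30 in vehicle mouse 5, against 0.55 to 0.74. Ces2a, below background in every lung, read −0.12 in medium-dose mouse 14, against 0.10 to 0.15.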

How the results depend on the processing

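No called change reversed under any alternative run, but the uncalled changes in liver did not keep their direction without the dim slide, as the report gives. Median centring in place of loess gave 1.77 for Ces2e in low-dose lung (2.14 with loess) and 0.98 for Ces2f in high-dose forestomach (1.37), and it ended 17 of the 32 calls of single probes. With it the counts of called member probes were 0 for the high-dose change in lung against liver (1 with loess), 4 for vehicle liver against forestomach (7), 6 for vehicle liver against lung (10) and 0 for vehicle lung against forestomach (7); the cause was not tested. For the high-dose change in lung against liver the count was 3 with slide as a fixed block, 2 without the dim liver slide and 1 to 2 when 1 mouse at a time was left out, with 2 without mouse 5. Vehicle liver against forestomach gave 11 without the dim slide, which leaves 4 vehicle livers. Leaving out 1 mouse at a time gave 3 to 4 called probes in high-dose lung, 2 in medium-dose lung, 7 to 8 for vehicle liver against forestomach, 9 to 11 for liver against lung and 5 to 8 for lung against forestomach. With the mouse number as a replicate block, the pairing across tissues, the counts were 1 and 1 for the differences in change and 10, 7 and 7 for the vehicle tissues, and no call changed. A fixed slide block could not be fitted for vehicle tissues, since each slide holds 1 tissue. A random slide block, chosen after seeing the data, gave 10, 8 and 6 called probes for liver against lung, liver against forestomach and lung against forestomach, and ended the call of Ces2c (A_55_P2005213) in the last (−2.09 ± 0.87, adjusted p = 0.0662). The processed table and normexp each ended only the call of the Ces2e probe A_51_P179919 in high-dose lung. Probes below background carry only bounds.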
